A study of Homo sapiens with 4 samples.

Results

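The 8 genes described here encode the enzymes of serine synthesis (PHGDH, PSAT1 and PSPH), the serine hydroxymethyltransferases (SHMT1 and SHMT2) and the methylenetetrahydrofolate dehydrogenase family (MTHFD1, MTHFD2 and MTHFD1L). They were chosen by gene symbol, each matched 1 row of the 20665 genes in the deposited table, and all 8 passed the filter on low counts that left 13626 genes for testing. RNA came from NALM6, an established cell line of human precursor B acute lymphoblastic leukemia, grown in RPMI medium with serum. In 2 vehicle libraries the cells had received DMSO for 45 min. In 2 AICAR libraries they had first spent 24 h in medium without glucose and then received 15 mM AICAR for 45 min. The labels mention glucose withdrawal for AICAR cells and do not say whether vehicle cells had it too, so AICAR and glucose withdrawal cannot be told apart as sources of a difference. Every value comes from 1 cell line, and nothing in the labels says that the 2 libraries of a group came from separate cultures, so p-values measure the spread between these libraries.

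Cells make serine from the glycolytic intermediate phosphoglycerate in the order PHGDH, PSAT1, PSPH. Serine hydroxymethyltransferases then pass a carbon from serine to tetrahydrofolate and leave glycine, SHMT1 in the cytosol and SHMT2 in mitochondria. MTHFD2 and MTHFD1L carry that carbon to formate inside mitochondria, and MTHFD1 uses formate in the cytosol to make the formyl-tetrahydrofolate that purine synthesis consumes. AICAR is the nucleoside of an intermediate of that same synthesis: its phosphorylated form, which mimics AMP and activates the kinase AMPK, is the substrate that ATIC formylates with formyl-tetrahydrofolate. Proliferating leukemia cells are known for high demand on this pathway, which is where antifolate drugs act.

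The libraries held 32318376 to 36769116 expected counts, and the 8 genes together took 0.144% to 0.150% of them. Of 11 B cell precursor markers in the table, all were tested, and their summed level was 3701 to 3750 CPM (counts scaled to library size with TMM factors, which adjust for composition) with vehicle and 3883 to 3972 CPM with AICAR. Of them 5 were called higher, 2 lower and 4 did not pass. Over all tested genes 19.4% were called higher and 19.7% lower. Among the 3482 genes at least as abundant as PSPH these shares were 48.9% and 14.2%. The T cell markers CD2 and CD4 summed to at most 0.470 CPM in any library, the 5 myeloid markers to at most 4.34 CPM, HBB to at most 0.120 CPM and COL1A1 to at most 0.626 CPM. In a bulk sample, fewer cells expressing a gene and less of its RNA per cell cannot be told apart.

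Promoter sequence was available from RefSeq (GRCh38.p14, 250 bases before to 50 after a start) for 6 of the 8 genes, that is for all but PSPH and SHMT2. The windows were searched on both strands for CACGTG, the E-box bound by MYC, and TGATGNAA, the core of the element bound by ATF4, since both factors are known to drive genes of this pathway. The matching stretches are shown because they separate MTHFD1 and MTHFD1L from the other 4 genes searched, and capitals mark the motif.
MTHFD1 E-box, chr14:64388327-64388354, plus strand: cagtccctaagCACGTGggttgggttgt
MTHFD1L E-box, chr6:150866321-150866348, plus strand: acgcccggctcCACGTGcgcagccggcc
MTHFD1L ATF4 element, chr6:150866346-150866375, plus strand: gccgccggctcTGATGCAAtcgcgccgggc
The E-box of MTHFD1 began 15 bases before its annotated start. MTHFD1L has 4 annotated starts, and its E-box began 154, 115 or 1 bases before 3 of them, while the window of the fourth, further downstream, held neither motif. Its ATF4 element began 129 or 90 bases before 2 of these 3 starts and at base 25 after the most upstream one. Among all 35116 promoter windows 7.26% held CACGTG and 3.62% held TGATGNAA, with no overlap of the 2 motifs in the stretches shown. Counted by gene, with a match in any of its windows, the shares were 8.77% and 4.46% of 27305 genes. The 9 letters TGATGCAAT, read on from the MTHFD1L element and so certain to be found there, occurred in 0.236% of windows and in 0.293% of genes. A match describes these letters only, and PHGDH, PSAT1, SHMT1 and MTHFD2 had neither motif within this window.

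Per transcript length, the mitochondrial enzymes MTHFD2 and SHMT2 stood highest. On the scale of the deposited FPKM (fragments scaled for transcript length and depth), MTHFD2 led with 297 and 273 in the vehicle libraries and 268 and 266 in the AICAR libraries. SHMT2 followed at 201 to 220 FPKM over the 4 libraries, then PHGDH at 119 to 140 FPKM and PSAT1 at 82.7 to 89.6 FPKM. Each of these ranges lay clear of the next. MTHFD1L ranged from 41.8 to 49.4 FPKM, PSPH from 36.9 to 38.9 FPKM, MTHFD1 from 34.7 to 40.0 FPKM and SHMT1 from 29.8 to 34.1 FPKM. PSPH and MTHFD1 were the neighbours whose ranges overlapped, and the ranges of MTHFD1 and SHMT1 were separated by less than 1 FPKM. In every library the mitochondrial SHMT2 stood above the cytosolic SHMT1 and MTHFD2 above MTHFD1. The 5 pseudogene rows named after these genes, which could share reads with them, held at most 6.19 counts per library in all.

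**Figure D1:**
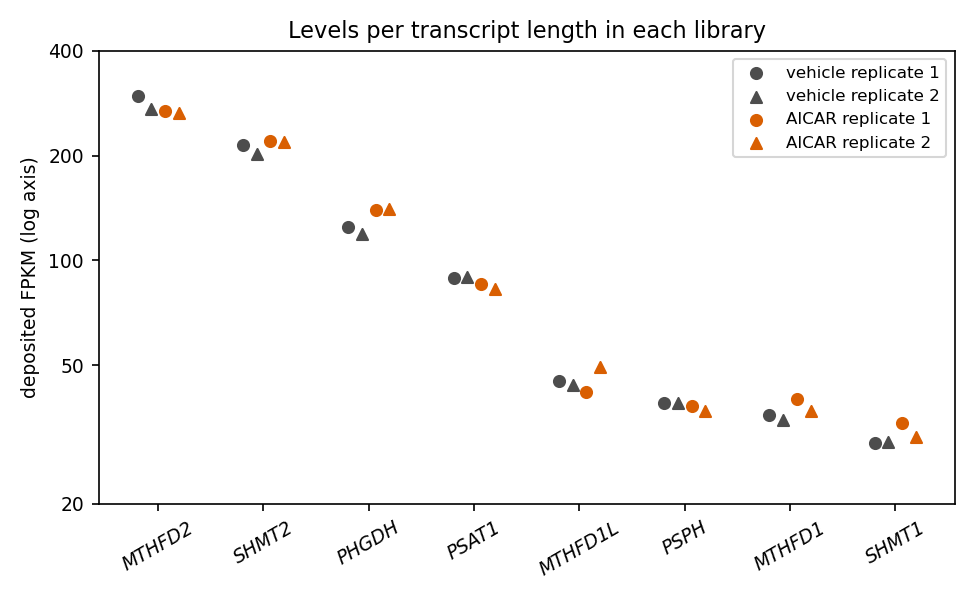
Deposited FPKM (log axis) of the 8 genes, ordered by their mean, with 1 point per library (grey, vehicle; orange, AICAR; circles, replicate 1; triangles, replicate 2). MTHFD2 sits between 266 and 297 FPKM and SHMT1 between 29.8 and 34.1 FPKM, and the libraries of a gene lie closer together than most neighbouring genes.

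With AICAR, transcripts of PHGDH, SHMT1, MTHFD1 and SHMT2 were higher by 11.1% to 19.9%, and those of PSAT1, PSPH, MTHFD2 and MTHFD1L did not pass the test. So 4 of the 8 genes were called higher and none lower, by the quasi-likelihood test of edgeR at a threshold of 0.05 after Benjamini-Hochberg adjustment over all tested genes. Over all 13626 genes, 19.4% were called higher, 19.7% lower and 39.1% in either direction. Abundance matters for that background: among the 3482 genes at least as abundant as PSPH, the lowest of the 8 (mean 45.6 CPM), 48.9% were called higher, 14.2% lower and 63.0% in either direction. The count of 4 in 8 is thus close to the share among genes of similar abundance, a level chosen after the values were seen. The median log2 fold change of the 8 genes was 0.11, equal at this precision to the 0.11 of those 3482 genes, against 0.00 over all genes tested (-0.0022).

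**Figure D2:**
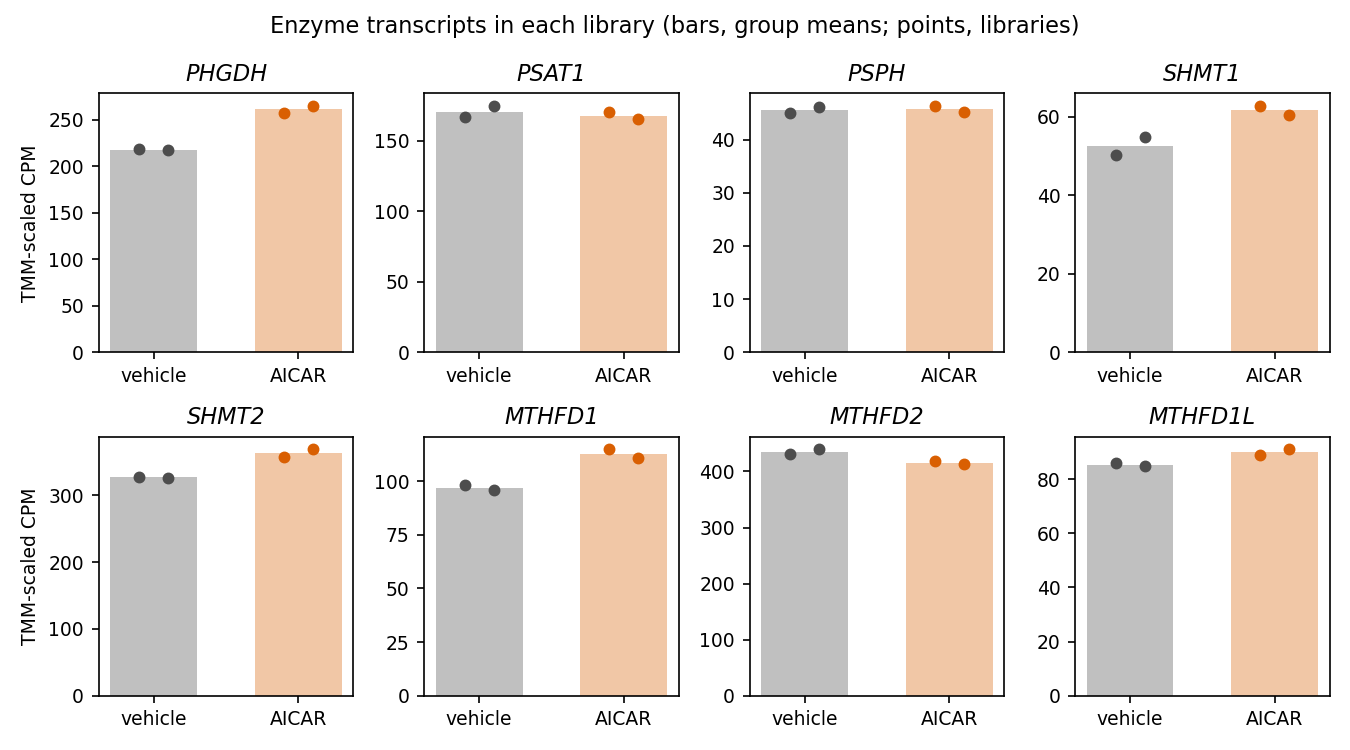
TMM-scaled CPM of each gene in the vehicle (grey) and AICAR (orange) libraries, with points for the 2 libraries and bars for their mean. For PHGDH, SHMT1, SHMT2 and MTHFD1 both AICAR points lie above both vehicle points, while for PSAT1 and PSPH the points of the groups overlap.

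PHGDH (ENSG00000092621), the dehydrogenase that commits phosphoglycerate to serine, had the largest log2 fold change of the 8 with all 4 libraries and TMM scaling. Its level was 218 and 217.5 CPM with vehicle and 258 and 265 CPM with AICAR. Both AICAR libraries stood above both vehicle libraries by far more than the replicates differed. The rise was 19.9%, from 218 ± 0.634 to 261 ± 5.22 CPM (mean ± SD, n = 2), or 0.26 in log2 fold change (SE 0.0376, edgeR adjusted p = 0.000263). Of all tested genes, 12.0% had a larger log2 fold change. The call held under each of the 17 alternatives chosen with the design and under 1 added after the values were seen. Its rank did not: SHMT1 was above it without vehicle replicate 2 (log2 fold change 0.28 against 0.25), SHMT1 (0.26) and MTHFD1 (0.25) were above it without AICAR replicate 2 (0.24), and MTHFD2 had the larger size of change when libraries were scaled on the abundant genes (-0.18 against 0.15).

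The genes of the next steps of serine synthesis did not pass the test. PSAT1 (ENSG00000135069), the aminotransferase that takes up the product of PHGDH, had 166.5 and 175 CPM with vehicle and 170.0 and 165 CPM with AICAR, and the groups overlapped. Its log2 fold change was -0.02, with a 95% interval of -0.11 to 0.06 (edgeR adjusted p = 0.673). PSPH (ENSG00000146733), the phosphatase that releases serine, had 45.0 and 46.1 CPM with vehicle and 46.3 and 45.1 CPM with AICAR, again with overlap. Its log2 fold change was 0.01 with a 95% interval of -0.10 to 0.11 (edgeR adjusted p = 0.941). As a fold the interval was 0.935 to 1.08 for PSPH and 0.924 to 1.05 for PSAT1. The lower bound for PHGDH, 1.13-fold, lay above the upper bound of each of the other 2 genes, though the difference between the genes was not itself tested.

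Both hydroxymethyltransferases were called higher. SHMT1 (ENSG00000176974) had 50.2 and 54.9 CPM with vehicle and 62.8 and 60.5 CPM with AICAR, so the groups did not overlap. Its rise was 1.17-fold, or 0.23 in log2 fold change (SE 0.0514, edgeR adjusted p = 0.00427). SHMT2 (ENSG00000182199) had 327 and 327 CPM with vehicle and 357 and 369 CPM with AICAR, also without overlap, with the vehicle pair almost identical. It rose 1.11-fold, by 0.15 ± 0.0380 (SE) on the log2 scale (edgeR adjusted p = 0.00811). This smaller rise was lost without AICAR replicate 2 (log2 fold change 0.13, edgeR adjusted p = 0.111) and with libraries scaled by total counts alone (0.09, edgeR adjusted p = 0.117).

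Within the MTHFD family the gene of the cytosolic enzyme was called higher and those of the mitochondrial ones did not pass. Passing for 1 gene and not for others does not by itself show that the genes differ. MTHFD1 (ENSG00000100714), the cytosolic enzyme with 3 activities, had 98.0 and 95.9 CPM with vehicle and 115 and 111 CPM with AICAR. The groups were clear of each other, and the rise was 1.16-fold, or 0.22 in log2 fold change (SE 0.0391, edgeR adjusted p = 0.00106). MTHFD2 (ENSG00000065911), the mitochondrial dehydrogenase and cyclohydrolase, had 431 and 439.5 CPM with vehicle and 418 and 413 CPM with AICAR. Both AICAR values were the lower ones, by little more than the replicates differed, and the log2 fold change of -0.07 had a 95% interval of -0.15 to 0.02 (edgeR adjusted p = 0.189). MTHFD1L (ENSG00000120254), the mitochondrial synthetase that releases formate and the carrier of both motifs printed above, had 86.0 and 84.7 CPM with vehicle and 88.8 and 91.0 CPM with AICAR. Its AICAR values were both the higher ones, with a log2 fold change of 0.08 and a 95% interval of -0.01 to 0.16 (edgeR adjusted p = 0.153). Groups without overlap were common: 5 of the 8 genes were higher and 1 lower without overlap, against 34.3% and 34.9% of all tested genes (69.2% in either direction).

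**Figure D3:**
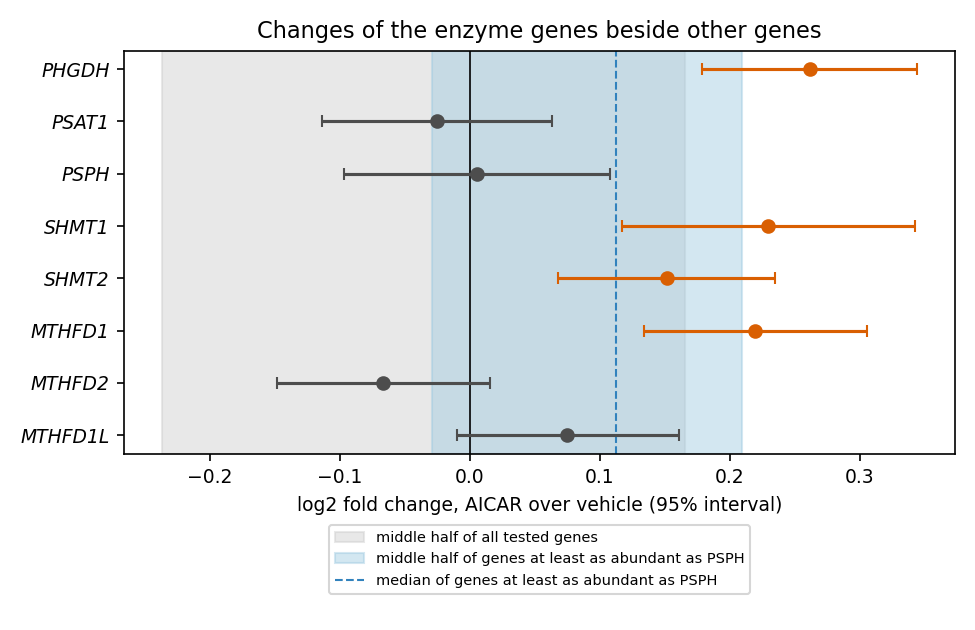
Log2 fold change of each gene with its 95% interval (orange, called higher; grey points, did not pass). Shaded are the interquartile ranges of all tested genes (grey, -0.24 to 0.17) and of the 3482 genes at least as abundant as PSPH (blue, -0.03 to 0.21), with the median of the latter dashed at 0.11. The points of PHGDH, SHMT1 and MTHFD1 lie to the right of both ranges, while their intervals reach into the blue one.

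Because all these changes are small, the scaling of the libraries bears on them. Under total counts alone, MTHFD2 was called lower (log2 fold change -0.13, edgeR adjusted p = 0.0279), as it was when a mean of at least 10 CPM was required (-0.11, edgeR adjusted p = 0.0273). Over all genes, total counts alone gave 1390 higher and 3135 lower calls in place of 2645 and 2683. When libraries were scaled on the 3482 genes at least as abundant as PSPH, a setting added after the values were seen, log2 fold changes shifted by a median of -0.11. Relative to those genes PHGDH (0.15), SHMT1 (0.12) and MTHFD1 (0.11) were still called higher, SHMT2 was not (0.04), and MTHFD2 (-0.18) and PSAT1 (-0.13) were called lower. SHMT1 passed there only narrowly (edgeR adjusted p = 0.0493). The background in that setting was 860 of the 3482 genes called higher and 1042 called lower. In limma's test on log2(FPKM + 1) of the deposited FPKM, PHGDH alone of the enzyme genes passed (0.20). SHMT1 and MTHFD1 had 0.12 each (limma adjusted p = 0.264 and 0.259). Calls were fewer over all genes too in that setting, with 603 higher and 1289 lower in place of 2645 and 2683. In the authors' deposited table the same 4 genes had q-values below 0.05, with log2 fold changes of 0.26 for PHGDH, 0.23 for SHMT1, 0.22 for MTHFD1 and 0.15 for SHMT2. That table gave 13.3% of its 12652 genes with a q-value as higher and 12.5% as lower.

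**Figure D4:**
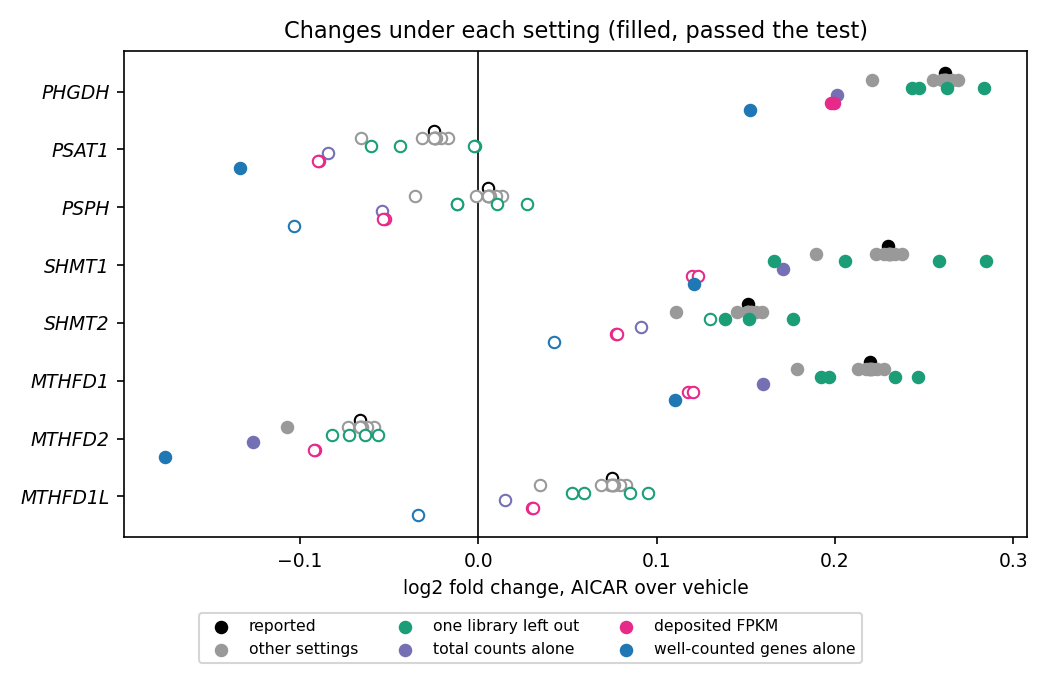
Log2 fold change of each gene under every setting, with filled points for values that passed the test and open points for those that did not. PHGDH is filled throughout, from 0.15 to 0.28, whereas PSAT1 and MTHFD2 are filled and below zero when scaled on well-counted genes (blue).

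A ratio of enzymes within a library does not depend on how libraries are scaled. The MTHFD2 to MTHFD1 ratio of FPKM was 8.23 and 7.86 with vehicle and 6.69 and 7.20 with AICAR. Both AICAR ratios were the lower ones, and the mean went from 8.05 ± 0.262 to 6.95 ± 0.364 (mean ± SD, n = 2), a log2 difference of -0.21. The SHMT2 to SHMT1 ratio was 7.21 and 6.71 with vehicle and 6.46 and 7.04 with AICAR, with overlap. The MTHFD1L to MTHFD1 ratio was 1.25 and 1.27 with vehicle and 1.04 and 1.34 with AICAR, so the AICAR libraries lay on either side of the vehicle pair. With 2 libraries against 2, the exact two-sided permutation test cannot give less than 0.333, which was the value for MTHFD2 to MTHFD1. The other 2 ratios gave 0.667 for SHMT2 to SHMT1 and 1.0 for MTHFD1L to MTHFD1 in the exact test, and all 3 were 1.0 after Benjamini-Hochberg adjustment. In CPM the log2 differences were -0.29 for MTHFD2 to MTHFD1, -0.08 for SHMT2 to SHMT1 and -0.14 for MTHFD1L to MTHFD1, against -0.21, -0.05 and -0.09 in FPKM. Only the MTHFD2 to MTHFD1 ratio was free of overlap in both units. Summed over genes, SHMT1 and MTHFD1 in the cytosol had 148 and 151 CPM with vehicle and 178 and 171 CPM with AICAR. The mitochondrial SHMT2, MTHFD2 and MTHFD1L together had 844 and 851 CPM with vehicle and 864 and 873.5 CPM with AICAR.

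Genes of lower glycolysis, from which serine synthesis branches off at phosphoglycerate, rose together. All 5 tested genes of lower glycolysis were called higher, with a median log2 fold change of 0.25, where the background for higher calls was 48.9% among abundant genes and 19.4% overall. GAPDH, which makes the precursor of phosphoglycerate, went from 5122 ± 16.8 to 6190.0 ± 105 CPM, and PKM, the pyruvate kinase, from 1623 ± 6.79 to 1943 ± 43.0 CPM (mean ± SD, n = 2). PGK1 and PGAM1, the enzymes on either side of phosphoglycerate, had the smallest rises, 1.10-fold and 1.11-fold. These last 2 calls were lost under total counts alone, without AICAR replicate 1, without AICAR replicate 2 and when scaled on the abundant genes, each of which left 3 of the 5. In limma's test on the deposited FPKM the PGK1 and PGAM1 calls were lost as well. Glycolytic genes have processed pseudogenes that can share reads, so their counts are uncertain to that extent.

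Other folate genes were mixed, with 3 higher and 1 lower among 12 tested and a median of 0.06. For this list and those that follow, the background is 19.4% higher and 19.7% lower over all genes, and 48.9% and 14.2% among the abundant genes. Of the 62 tested genes in the connected lists, 39 are at least as abundant as PSPH, and of these 12 folate genes 6 are. The second background thus covers only part of this list and of those that follow. FPGS, which adds the glutamate tail that keeps folates in the cell, rose 1.15-fold from 111 ± 1.63 to 128 ± 0.656 CPM (mean ± SD, n = 2). SLC25A32, the mitochondrial folate carrier, fell 1.19-fold from 66.4 ± 3.06 to 56.0 ± 0.146 CPM (mean ± SD, n = 2). In limma's test on the deposited FPKM the FPGS call was lost and the SLC25A32 call held. TYMS, the thymidylate synthase, had a log2 fold change of 0.04 and MTHFD2L, the relative of MTHFD2, had 0.07, and neither passed. FTCD and SLC46A1 did not reach the count filter. ALDH1L1 and ALDH1L2 were not analysed here.

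Among 6 genes of de novo purine synthesis, 3 were called higher and 1 lower, with a median of 0.11, close to the 48.9% called higher and the median of 0.11 among abundant genes. PFAS rose 1.29-fold from 105 ± 4.80 to 136 ± 1.07 CPM, and ADSL, whose products include the phosphorylated form of AICAR, rose 1.13-fold (mean ± SD, n = 2). PPAT, the first enzyme of the pathway, fell 1.13-fold from 86.9 ± 0.803 to 76.8 ± 1.64 CPM (mean ± SD, n = 2). Of the 2 enzymes that use formyl-tetrahydrofolate, GART rose 1.10-fold, and ATIC had 24.5 ± 0.435 CPM with vehicle and 23.9 ± 0.200 CPM with AICAR and did not pass (mean ± SD, n = 2). In limma's test on the deposited FPKM the calls of PPAT, ADSL and GART were lost, while that of PFAS held. The calls of ADSL and GART were lost under total counts alone and when scaled on the abundant genes, and that of GART also without either AICAR library.

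In the methionine cycle, which receives carbon from folate, 3 of 7 tested genes were called higher and 2 lower, with a median of -0.10. MTR, the methionine synthase that takes the methyl group from folate, rose 1.21-fold from 74.4 ± 2.81 to 89.8 ± 3.18 CPM, and AHCY rose 1.14-fold from 359 ± 2.24 to 410.5 ± 2.57 CPM (mean ± SD, n = 2). The genes for the enzyme that makes S-adenosylmethionine fell, MAT2A by 1.28-fold from 151 ± 5.26 to 118 ± 1.11 CPM and its regulatory subunit MAT2B by 1.11-fold (mean ± SD, n = 2). In the glycine cleavage system, which also feeds mitochondrial folate, GCSH fell 1.14-fold, and the other 2 of 3 tested genes did not pass, with a median of -0.03. GLDC, its decarboxylase, had 18.1 ± 1.11 CPM with vehicle and 18.3 ± 1.68 CPM with AICAR (mean ± SD, n = 2), and AMT did not reach the count filter. In limma's test on the deposited FPKM the calls of MTR, AHCY, MAT2B and GCSH were lost, while that of MAT2A held. The AHCY call was lost when scaled on the abundant genes, and those of MAT2B and GCSH with DESeq2, with no filter on low counts and without vehicle replicate 2 or AICAR replicate 1.

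Of 10 tested genes of serine transport and use, 1 was called higher and 1 lower, with a median of 0.05. The amino acid transporter SLC38A2 fell 1.65-fold from 199 ± 6.20 to 120.4 ± 1.78 CPM (mean ± SD, n = 2), and the transporter SLC1A5 rose 1.10-fold, a call lost under total counts alone, when scaled on the abundant genes and without vehicle replicate 2 or either AICAR library. In limma's test on the deposited FPKM the SLC1A5 call was lost too, while that of SLC38A2 held. SFXN1, the mitochondrial serine carrier that supplies SHMT2, had 137.5 ± 0.758 CPM with vehicle and 136 ± 0.326 CPM with AICAR (mean ± SD, n = 2), a log2 fold change of -0.01 with a 95% interval of -0.09 to 0.07.

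PHGDH, PSAT1, PSPH, SHMT2 and MTHFD2 are known targets of ATF4, the transcription factor of the amino acid response, and some other ATF4 targets moved by far larger amounts. Of 16 tested, 8 were called lower and 3 higher, with a median of -0.17, where the background was 19.7% lower and 19.4% higher over all genes and 14.2% and 48.9% among abundant ones. CHAC1, which degrades glutathione, fell 12.0-fold and DDIT3, the stress factor CHOP, fell 5.87-fold, while the asparagine synthetase gene ASNS had 0.06 in log2 fold change (edgeR adjusted p = 0.397). AARS, an aminoacyl-tRNA synthetase, rose 1.14-fold and the transporter SLC7A5 1.12-fold, and both calls were lost when scaled on the abundant genes, that of SLC7A5 also under total counts alone. Both were lost in limma's test on the deposited FPKM as well. ATF4 itself had 540.3 ± 4.99 CPM with vehicle and 577 ± 4.91 CPM with AICAR (mean ± SD, n = 2), a log2 fold change of 0.10 that did not pass (edgeR adjusted p = 0.0618). Over its alternatives that adjusted p ran from 0.0227 to 0.777, and the value turned to -0.01 when scaled on the abundant genes.

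**Figure D5:**
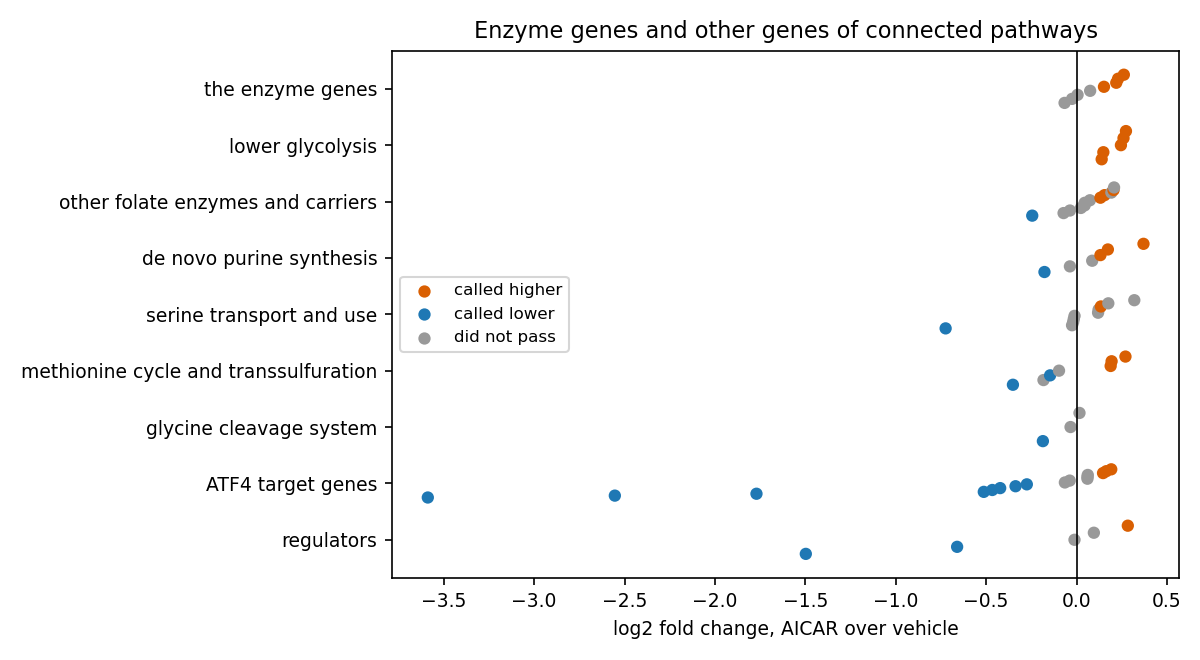
Log2 fold change of every tested gene in the 8 enzyme genes and the connected lists (orange, called higher; blue, called lower; grey, did not pass). The 8 enzyme genes lie between -0.07 and 0.26, while among the ATF4 targets CHAC1 reaches -3.59.

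MYC, which is known to induce SHMT2 and other folate genes, fell from 529.5 ± 18.6 to 187.5 ± 0.636 CPM (mean ± SD, n = 2). Its log2 fold change was -1.50. In these libraries SHMT2 and MTHFD1 were called higher, neither under every setting, and any link to MYC was not tested. MAX, the partner of MYC, had a log2 fold change of -0.01 and did not pass. When scaled on the abundant genes it had -0.12 and passed as lower (edgeR adjusted p = 0.0472). NFE2L2, the factor NRF2 that can raise serine synthesis genes through ATF4, fell 1.58-fold from 33.7 ± 0.419 to 21.3 ± 0.0187 CPM (mean ± SD, n = 2). Over all connected lists 18 of 62 tested genes were called higher and 16 lower. In limma's test on log2(FPKM + 1), 4 of these higher and 11 of these lower calls remained. Over all 13626 genes that test gave 603 higher and 1289 lower calls, in place of 2645 and 2683.

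The genes whose profile over the 4 libraries lay nearest to PHGDH, by Euclidean distance of mean-centred log2 CPM, were PKM (0.0040), the proteasome ATPase gene PSMC3 (0.0075) and the reductase gene CYB5R3 (0.0104). For MTHFD2 they were the splicing factor gene CRNKL1 (0.0098), DSCR3 (0.0102) and ARL6IP6 (0.0106). Within a distance of 0.1 stood 1276 of the 7952 other protein-coding genes with at least 10 CPM for PHGDH and 1324 for MTHFD2, so 4 libraries do not single out close companions.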

How the data were processed

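Total RNA of 4 libraries was extracted with the RNeasy Plus kit and sequenced as stranded libraries with single reads of 75 bases, per the labels' protocols. Tools named in the submitters' processing notes are Trimmomatic 0.32, STAR 2.5.3a, RSEM 1.2.31 and DESeq2, on the hg19 build. No settings and no annotation are given in these sources. The authors deposited expected counts (estimated counts per gene, not normalized), FPKM normalized by them for length and depth, and their own log2 fold changes and q-values, which are adjusted p-values. The latter 2 are quoted only as the authors' deposited table.

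After rounding the expected counts, low genes were removed with filterByExpr of edgeR 4.0.16 (R 4.3.3), with 10 as minimum count and 15 as minimum total. TMM factors scaled the libraries, and groups were compared by edgeR's quasi-likelihood test, two-sided and without a replicate block, with Benjamini-Hochberg adjustment over 13626 genes. SE is the log2 fold change divided by the square root of its F statistic, and 95% intervals use the test's degrees of freedom. The procedure was also run on simulated data. The outcome of that run is not reported here, so it lends no weight to the calls. Alternatives used limma 3.58.1 (on log2(CPM + 1) and on log2 of FPKM + 1 or + 0.1, with changes on those scales), DESeq2 1.42.0 and other scalings, filters and libraries.

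Named genes are the 8 enzyme genes, the regulators, the 2 highest and 2 lowest called genes of each list and the nearest profiles. TYMS, MTHFD2L, ATIC, GLDC, SFXN1, ASNS and GART were added after their values were seen. Of the genes this rule names, 2 are counted in their lists and are not reported here by name. The members, lists and tests were chosen with earlier results of these data known. Figures used matplotlib 3.10.9 in Python 3.11.15.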

Additional observations from a re-analysis of the deposited data

How the results depend on the processing

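With each library left out in turn, 3 to 4 of the 8 genes were called higher and 0 lower; the log2 fold changes ran from 0.24 to 0.28 for PHGDH, 0.17 to 0.28 for SHMT1, 0.13 to 0.18 for SHMT2, 0.19 to 0.25 for MTHFD1, -0.08 to -0.06 for MTHFD2, -0.06 to 0.00 (-0.0015) for PSAT1, -0.012 to 0.027 for PSPH and 0.05 to 0.10 for MTHFD1L. The replicate block, tried although same-numbered libraries did not deviate together (r = -0.025 across 8228 genes), left the count of 4 higher and 0 lower and changed no call of the 8 genes. PSPH turned to -0.054 under total counts alone, -0.035 with the filter at a mean of 10 CPM, -0.052 and -0.053 with FPKM pseudocounts of 1 and 0.1, -0.0009 among protein-coding genes and -0.10 when scaled on genes at least as abundant as PSPH, where MTHFD1L turned to -0.034 and ATF4 to -0.013; none of these passed. MAX ran from -0.063 to 0.027 with a library left out and was called lower on the abundant genes (-0.12). The count of members called higher was 1 with FPKM, and that of members called lower was 1 under total counts alone, 1 with the 10 CPM filter and 2 on the abundant genes. With FPKM and pseudocounts of 1 and 0.1, SHMT1 had 0.12 and 0.12, SHMT2 0.077 and 0.078 and MTHFD1 0.12 and 0.12, none called; SHMT2 was also lost under total counts alone (0.091) and on the abundant genes (0.043). MTHFD2 became called under total counts alone (-0.13), with the 10 CPM filter (-0.11) and on the abundant genes (-0.18), as did PSAT1 there (-0.13). Over all genes, calls higher and lower numbered 1390 and 3135 under total counts alone, 1817 and 1782 with DESeq2, and 1817 and 1991 with no filter on low counts. They numbered 1727 and 1893 at a threshold of 0.01 and 860 and 1042 on the abundant genes. With FPKM they were 603 and 1289 at a pseudocount of 1 and 591 and 1285 at 0.1. Of 62 tested genes of the connected lists, 18 were called higher and 16 lower; 9, 4, 4 and 7 were higher under total counts alone, both FPKM settings and on the abundant genes. With the looser E-box CANNTG, present in 68.7% of windows, all 6 searched members had a match in place of 2. The causes were not tested, and the setting on abundant genes changed both the scaling and the genes tested.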

Other observations

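Counts and FPKM of the same gene did not always move together. Counts divided by FPKM, relative to the library's median over protein-coding genes, follow the effective transcript length that entered the FPKM. For MTHFD1L this relative length was 0.982 and 0.951 with vehicle and 1.05 and 0.899 with AICAR, a spread of 1.17 between the largest and the smallest, and the 2 AICAR libraries lay on either side of the vehicle pair. Across 7980 rows matched by symbol to protein-coding genes with at least 10 CPM, the same spread had a median of 1.07 and an upper quartile of 1.14. Some symbols recur among these rows, so they outnumber the genes. For SHMT1 it was 1.09, with 0.866 and 0.903 with vehicle and 0.912 and 0.947 with AICAR, and for PHGDH it was 1.02. The SHMT1 log2 difference was 0.12 in FPKM and 0.23 in counts, and the part of the relative length in this gap was not tested.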
